A study of Mus musculus with 6 samples.

Results

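TEC genes are an annotation class for transcripts placed on the genome from expressed sequence evidence that still awaits experimental testing, and they are described here across RNA of heavy complexes from mouse astrocytes. The members are the genes whose biotype is TEC in the authors' 3 deposited gene tables. There are 235 of them among 13970 listed genes: 111 listed for the optimized extraction alone, 3 for the standard extraction alone and 121 shared by both. The protein kinase gene Tec shares only the name and is no member.

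The cells were primary astrocytes, the support cells of the brain that take up transmitters and feed neurons, thawed and grown from newborn (P0-P2) mice of the strain C57BL/6JOlaHsd, pooled male and female, and left untreated. In the optimized extraction, lysis took place on the culture plate, with the gentle detergent DDM and a higher salt concentration. In the standard extraction, cells were scraped, frozen, and later lysed in Triton X-100 and sodium deoxycholate with less salt. Both used cycloheximide, which holds ribosomes on mRNA, and in both the heavy complexes were spun through a sucrose cushion before stranded sequencing of the pellets' total RNA. Each extraction had 3 libraries, labelled batches A, B and C, and 6 libraries were made in all. The comparison asks which RNAs each extraction brings into the pellet of ribosomes and other RNA-protein particles.

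A heavy pellet holds mRNAs covered by ribosomes, and it can also hold noncoding RNA bound in large particles and RNA released from nuclei. In the annotation of mouse, TEC genes are mostly of 1 exon and often lie inside the introns of larger genes, just past their ends, or on the opposite strand. Introns are normally removed in the nucleus, so that sequence from them is scarce on ribosomes, while sequence past an annotated end can belong to a longer form of the same mRNA. A mature end of most mRNAs is cut and given its poly(A) tail a short distance after a signal of 6 bases, usually AATAAA or ATTAAA in the DNA.

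The deposited tables give 1 log2 ratio for each shared gene, optimized over standard extraction, and no value for genes of 1 extraction alone. No library has its own value, so no ratio has an error and none is tested here, and depth is unknown. Counts and medians are therefore set beside the same measure over all shared genes. The pellets are bulk samples, in which fewer cells of a type and less RNA per cell cannot be told apart. The tables list all 10 astrocyte markers looked for as shared, with log2 ratios from 0.61 to 1.18 in the authors' deposited table, among them the filament gene Gfap (1.11). Other cell types had partial marker sets. Of 5 neuron markers 3 were shared (Map2, Tubb3 and Syt1), and Rbfox3 and Snap25 were not listed. Of 5 microglia markers 1 was shared (Tmem119), of 5 oligodendrocyte lineage markers 4 (all but Mog), and of 4 endothelium and fibroblast markers 2 (Col1a1 and Dcn). The part of these cells in the TEC lists was not tested.

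Nearly every member was a single-exon gene, as were 3153 of the 3219 annotated TEC genes, and all were found in the annotation. By gene identifier all 235 matched GENCODE M21, which is built on GRCm38 (mm10), 234 have 1 exon and Gm21816 has 2. There 234 carry the biotype TEC, and 4930518I15Rik is protein-coding. The symbols are mostly placeholders: 205 begin with Gm and 26 end in Rik, and Particl is one of the other 4. The symbol Gm4430 names 2 members, ENSMUSG00000103009 and ENSMUSG00000103532. Each member was given the first place that held against listed genes that are not TEC: on an exon, in an intron, or starting within 5 kb after the 3' end of a gene on the same strand, then antisense to a gene, near a start (within 5 kb upstream, either strand), overlapping a gene that is not listed, or between genes. The listed gene that sets the place is called its host on the same strand and its opposite gene on the other. An overlap of any length counted as antisense.

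The ends of 8 members that carry a polyadenylation signal are printed to show the signal in its sequence; 150 of the 235 members have none in their last 50 bases, most intronic ones among them. In each the signal of 6 bases is in capitals, and the window runs 5′ to 3′ on the gene's own strand from 10 bases before the signal, at most 30 bases long and cut at the transcript's end. The sequences are from GENCODE M21 and the coordinates from mm10. The first 4 begin after the 3' end of a listed gene, the next is antisense to one, and the following 2 lie between genes on different chromosomes and are shown because their windows are letter for letter alike. The last is a standard-only member.
BB187690, after Ankub1, chr3:57654405-57654434, minus strand: agatattatgAATAAAgcatttttggacag
Gm44250, after Pon3, chr6:5216258-5216285, minus strand: gagttaatatAATAAAaacttgtaccaa
Gm43327, after Arsj, chr3:126445031-126445060, plus strand: tatggggaacAATAAAtctctatgttgaaa
Gm43668, after Fxr1, chr3:34075949-34075978, plus strand: caaaggggcaAATAAAaggttagtaagcca
Gm33366, antisense to C130071C03Rik, chr13:83734709-83734736, minus strand: ggttttatcaAATAAAaaaatgtaaatt
Gm42553, between genes, chr5:43060855-43060883, plus strand: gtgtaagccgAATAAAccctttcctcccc
Gm45663, between genes, chr8:104154309-104154337, plus strand: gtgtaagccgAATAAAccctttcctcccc
5930409G06Rik, between genes, chr3:45273426-45273455, minus strand: attaaagttaAATAAAgagttgaaaatggt

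A large share of the TEC genes was listed for the optimized extraction alone. The count was 111 of 235 (47.2%), against 4.42% of all listed genes. Among the lncRNA genes, the annotated class most like TEC, it was 199 of 581 (34.3%). For the standard extraction alone it was 3 of 235 (1.28%), against 0.537% of all listed genes. The rule behind the lists and the depth are unknown, and absence from the other pellet cannot be read from these counts. The 3 standard-only members are Gm37780 in an intron of Rsu1 (chr2:13161751-13163623), AA474408 antisense to the transcription factor gene Zfp143 (chr7:110057987-110061325), and 5930409G06Rik between genes (chr3:45273424-45274967). Their host and opposite genes were both shared, Rsu1 at a log2 ratio of 1.06 and Zfp143 at 0.94 in the authors' deposited table. AA474408 overlaps Zfp143 (chr7:110061217-110095394) only at its edge. The annotation holds 3219 TEC genes, of which 2538 have an identifier no later than the last listed one (ENSMUSG00000110424) and could have been in an annotation of that age. Of these 2538 genes 9.22% were listed, and the 2304 that were not are used as the background of annotated, unlisted TEC genes.

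The shared TEC genes lay in the middle of all shared genes and were spread more widely than these, though no more widely than lncRNA genes of 1 exon. Their median log2 ratio was 1.10 (quartiles 0.78 and 1.53, n = 121), against 1.09 for all 13278 shared genes (quartiles 0.90 and 1.27) and 1.08 for protein-coding genes. The 381 shared lncRNA genes had a median of 1.43 (quartiles 1.15 and 1.71), and the 50 of them with 1 exon a median of 1.26 (quartiles 0.71 and 1.59). At least 2-fold higher values in the optimized extraction were given for 74 TEC genes (61.2%), against 63.0% of all shared genes, a share near the background, and 8 of the 74 had ratios under the median of all shared genes. Of the shared TEC genes 66 (54.5%) had a ratio above the median of all 13278 genes (the overall median), as 50.0% of all shared genes do by definition.

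The wider spread than that of all shared genes lay on both sides at a distance of 0.5, and on the upper side at 2-fold. At least 2-fold above the overall median lay 7 TEC genes (5.79%), against 0.678% of all shared genes, and at least 2-fold below it 1 (0.826%), against 0.587%. More than 0.5 above it on the log2 scale lay 30 (24.8%), against 5.26%, and more than 0.5 below it 18 (14.9%), against 5.45%. A ratio below 0 was given for 1 member, Gm38279, in the authors' deposited table. The 1 gene at least 2-fold below is a share near the background. These shares describe the deposited ratios, and they were not computed for lncRNA genes. How many reads stood behind a ratio is unknown, and the part of low counts in the spread was not tested.

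**Figure D1:**
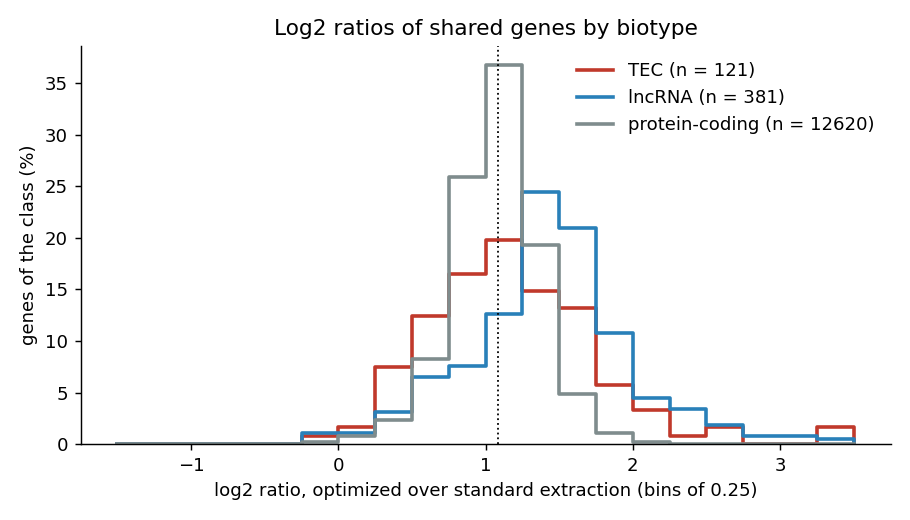
The plot shows the percentage of genes of each class (vertical axis) per bin of 0.25 of the log2 ratio of optimized over standard extraction (horizontal axis), for 121 TEC, 381 lncRNA and 12620 protein-coding shared genes. The dotted line is the median of all shared genes, 1.09; the TEC outline is centred on it and is broader than the protein-coding outline on both sides.

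The highest ratios among the shared members belonged to antisense transcripts, transcripts in introns and one that overlaps the edge of a microRNA gene. Gm37795 (chr4:150068539-150070997) had a ratio of 3.30 in the authors' deposited table. Only its first bases overlap Mir34a (chr4:150068454-150068555), the gene of a microRNA known as a target of p53, which is not itself listed. Gm33366, whose end is printed above, followed at 3.28 in the authors' deposited table, against 1.86 for its opposite gene C130071C03Rik, a lncRNA gene. 6430511E19Rik (chr7:92639949-92643783) had a ratio of 2.74 in the authors' deposited table, against 1.14 for its opposite gene Pcf11, which codes for a factor of mRNA 3' end cleavage. It overlaps Pcf11 (chr7:92643543-92669934) only at the edge. Gm43980 (chr6:49254851-49256462) had a ratio of 2.62 in the authors' deposited table, against 1.51 for its opposite gene Tra2a, a splicing regulator. All 4 lie more than 2-fold above the overall median.

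Lower in the top group came members inside genes. Gm36989 in an intron of Matr3 (chr18:35574907-35577066), which codes for a nuclear matrix protein, had a ratio of 2.36 in the authors' deposited table, against 1.07 for Matr3. Gm45110 in an intron of B130055M24Rik (chr7:127455469-127456870) had a ratio of 2.24 in the authors' deposited table, against 1.20 for that gene. 9330162G02Rik, the longest of these with 30942 bases (chr7:59223847-59254788), lies antisense to the ubiquitin ligase gene Ube3a and had a ratio of 2.14 in the authors' deposited table, against 1.01 for Ube3a. The other members of the top 12 had these ratios in the authors' deposited table: Gm44660 (2.08, between genes, with near-identical copies in 7 other genes), Gm7265 in an intron of the ubiquitin ligase gene Nedd4 (2.01), Gm37755 antisense to Kansl1l (1.96), Gm37090 on an exon of Gm16008 (1.94) and A930005G22Rik (1.88, over the unlisted gene Gm13832).

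Several of the lowest ratios belonged to members that begin within 5 kb after the end of another gene. Gm38279, between genes on chromosome 9, had a ratio of -0.08 in the authors' deposited table, and near-identical copies in 5 other genes make its reads uncertain. BB187690, after Ankub1, had a ratio of 0.14 in the authors' deposited table, against 1.24 for Ankub1. Gm43719, after the gene of the secreted guidance protein Sema3a, had a ratio of 0.23 in the authors' deposited table, against 0.56 for Sema3a. Gm44250, after the paraoxonase gene Pon3, had a ratio of 0.36 in the authors' deposited table, beside 0.37 for Pon3. Gm37277, after Rgs20, a regulator of G protein signalling, had a ratio of 0.41 in the authors' deposited table, against 0.99 for Rgs20. The other 3 of the lowest 8 in the authors' deposited table were Gm42600 in an intron of the centrosome gene Alms1 (0.29), Gm42547 between genes (0.42) and Gm37621 antisense to Ppp2r3a (0.43). So 4 of the lowest 8 began after a 3' end, and 0 of the highest 12 did, beside 24 of all 121 shared members (19.8%). Within 1 kb of the end it was 1 of the lowest 8, Gm44250, a share near that of all shared members (12 of 121, 9.92%).

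Optimized-only and shared members had different places. Of the 111 optimized-only members 59 (53.2%) lay in an intron, against 36 of 121 shared members (29.8%) and 43.4% of annotated, unlisted TEC genes. After a 3' end began 5 optimized-only members (4.5%), against 24 shared members (19.8%) and 2.86% of the unlisted. With a window of 1 kb in place of 5 kb it was 3 optimized-only members (2.7%), against 12 shared members (9.92%) and 0.781% of the unlisted. Between genes lay 10 optimized-only members (9.01%), against 30 shared members (24.8%) and 23.4% of the unlisted. Without members that have a near-identical copy in another gene it was 6 of 106 optimized-only members (5.66%), against 12 of 96 shared members (12.5%). Antisense members made up like shares of both: 18 optimized-only (16.2%) and 19 shared (15.7%), beside 11.3% of the unlisted. On an exon lay 7 optimized-only members (6.31%) and 2 shared ones (1.65%), near a start 3 (2.7%) and 4 (3.31%), and over an unlisted gene 9 (8.11%) and 6 (4.96%). The 3 same-strand places held 71 optimized-only members (64%), against 62 shared members (51.2%) and 47.6% of the unlisted. The set of hosts was the listed genes, so the places of members and of unlisted genes were read in the same way.

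Read by place, an annotated TEC gene was listed most often after a 3' end and on an exon. Of 95 TEC genes that begin after a 3' end 29 were listed (30.5%), and of 39 on an exon 9 (23.1%). The share was 12.7% of 299 antisense, 8.76% of 1096 intronic, 7.07% of 580 between genes, 6.19% of 113 near a start and 4.43% of 316 over an unlisted gene. Among those listed, 61.5% of intronic members were optimized-only, against 17.2% of members after a 3' end and 24.4% of members between genes.

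**Figure D2:**
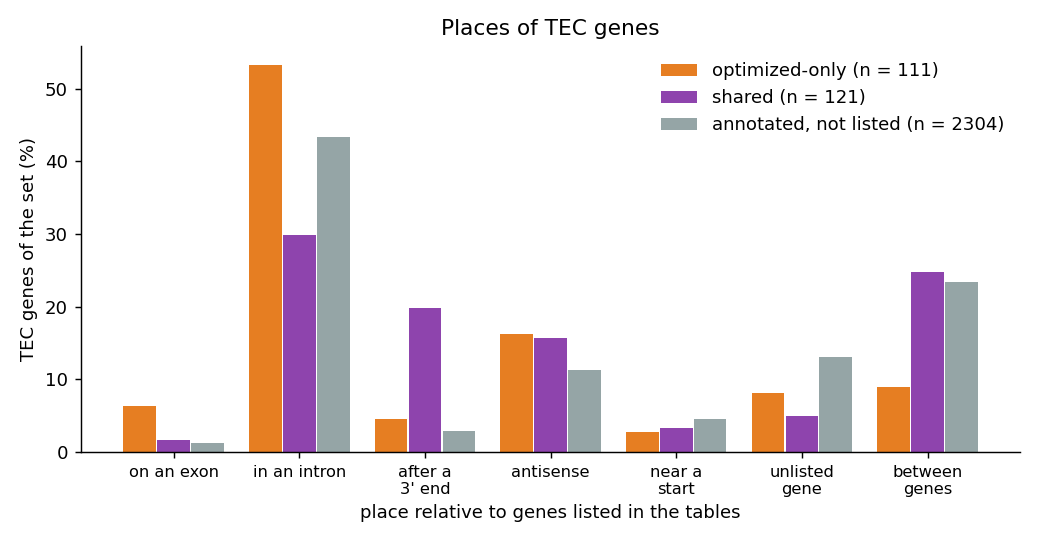
Bars give the percentage of TEC genes in each place (horizontal axis) for 111 optimized-only members, 121 shared members and 2304 annotated TEC genes that were not listed, with no error bars since each bar is 1 count over 1 total. Introns held 53.2% of optimized-only members against 29.8% of shared ones, and the places after a 3' end 4.5% against 19.8%.

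Places were different for lncRNA genes. Of 199 optimized-only lncRNA genes 46.2% were antisense and 9.05% intronic, and of 381 shared lncRNA genes 35.7% were antisense and 4.2% intronic. The same-strand places held 17.1% of optimized-only and 15.2% of shared lncRNA genes, where they held 64% and 51.2% of the TEC members.

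The ratio of a shared member varied with its place. Members that overlapped an unlisted gene had a median log2 ratio of 1.77 (n = 6). Each of the 6 exceeded the overall median of 1.088, Gm44231 only just, at 1.092 in the authors' deposited table. Near-identical copies in other genes were found for 2 of the 6. Antisense members had a median of 1.44 (quartiles 1.25 and 1.86, n = 19), with 15 above that median. Intronic members had a median of 1.25 (quartiles 0.89 and 1.53, n = 36), with 21 above it, and ranged from 0.29 to 2.36. Members between genes had a median of 1.16 (quartiles 0.89 and 1.41, n = 30), with 17 above it, and ranged from -0.08 to 2.08. Members after a 3' end stood lowest, with a median of 0.71 (quartiles 0.52 and 1.00, n = 24), a range of 0.14 to 1.47 and 5 above the overall median. The 4 near a start had a median of 1.06, and the 2 on an exon were listed at 1.94 (Gm37090) and 0.46 (Gm37397) in the authors' deposited table.

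Neighbouring places in that order overlapped. The quartiles of intronic members and of members between genes lay nearly on each other, and those of antisense members began within them. Members after a 3' end had the lowest quartile range of these 4 places, and its upper quartile (1.00) still lay above the lower quartiles of intronic members and members between genes (0.89 in both). Among lncRNA genes too, those after a 3' end stood lowest of these 4: antisense ones had a median of 1.41 (n = 136), intronic ones 1.47 (n = 16), those between genes 1.32 (n = 53) and those after a 3' end 1.04 (n = 32).

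**Figure D3:**
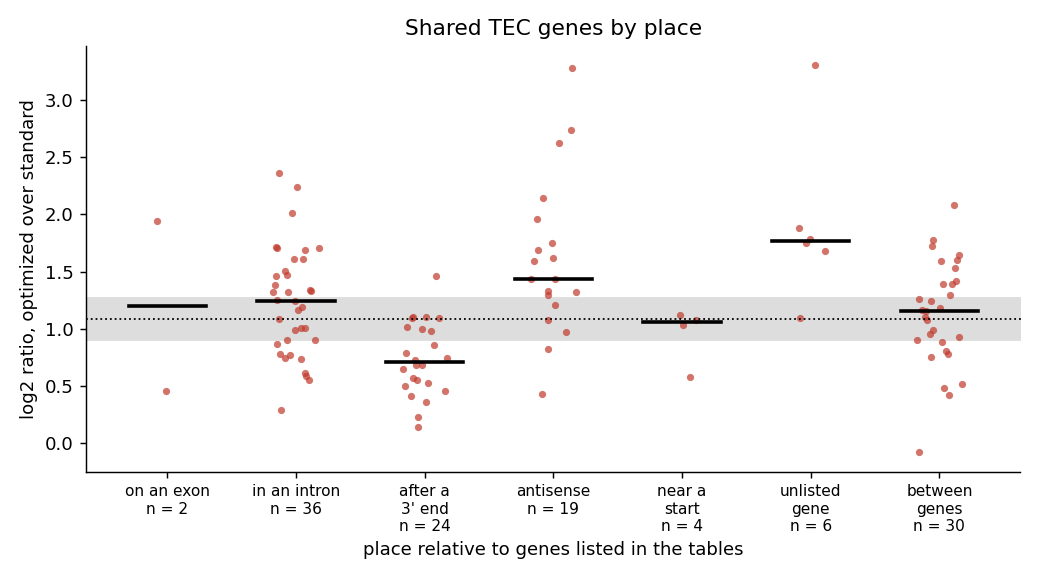
Each point is 1 of 121 shared TEC genes, with its place on the horizontal axis and its log2 ratio of optimized over standard extraction on the vertical axis; black bars are medians. The dotted line is the median of all shared genes and the grey band their quartiles (0.90 and 1.27): most of the 24 genes after a 3' end lie below the line, and their median is 0.71.

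Intronic members lay on both sides of their host's ratio in nearly equal numbers. In 34 pairs of a shared intronic member and a shared host, the members had a median of 1.29 and the hosts of 1.14. The difference, member minus host, had a median of -0.01 on the log2 scale (quartiles -0.28 and 0.40), with 16 members above and 18 below their host. Across these 34 pairs of genes Spearman's rho was 0.01 and Pearson's r -0.02, given as a description since pairs of genes are not replicates and all ratios come from the same libraries. Members lay more than 0.5 from their host in 10 pairs.

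Some of these pairs stood far apart in both directions. Gm42445 (chr5:14611652-14614544) in an intron of Pclo, which codes for a protein of the presynaptic active zone, had a ratio of 1.39 in the authors' deposited table, against 0.07 for Pclo, a difference of 1.32. Gm36989 stood 1.29 above Matr3 in the authors' deposited table, Gm44189 (1.46) stood 1.09 above the neuronal adhesion gene Cntn3 (0.38), and Gm45110 stood 1.04 above B130055M24Rik. At the other end, Gm42600 stood below Alms1 (1.22) in the authors' deposited table, with a difference of -0.93. The sources used here do not give the strand setting of the counting, and reads of unspliced host RNA and of a transcript inside the intron cannot be told apart in these values.

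The optimized-only intronic members lay in genes whose own ratios were ordinary. Their 59 places fell in 53 hosts. All hosts were shared, as were 13278 of the 13970 listed genes, and the rule takes a host with a shared value first. With a host counted once per member, the median host ratio was 1.17 (quartiles 1.02 and 1.28), beside 1.09 for all shared genes. The hosts had a median span of 83.3 kb for optimized-only and 114 kb for shared intronic members, against 25.4 kb for all shared genes. A gene with room for such a member in an intron is long by that choice. The hosts of unlisted intronic TEC genes were not measured. The middle of the member lay at a median of 32.4% of the host's span for optimized-only members and 45.7% for shared ones, counted from the host's start. The longest optimized-only intronic members were Gm38211 in the collagen gene Col5a2 (7217 bases, chr1:45485836-45493052), E230020D15Rik in the ephrin gene Efnb2 (5899 bases, chr8:8629175-8635073) and Gm45477 in Gatad2b (5498 bases, chr3:90311518-90317015), a gene of the NuRD chromatin complex. Their hosts had log2 ratios of 0.79, 0.98 and 0.79 in the authors' deposited table, in that order, all below the median of all shared genes.

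A few hosts held several members. The 134 members in the 3 same-strand places fell in 122 hosts, 6 of which had 2 or more members and 4 of which had 3 or more. Kansl1l (chr1:66719248-66817562, log2 ratio 1.13 in the authors' deposited table) held 4. Of these, 6820402A03Rik was listed at 1.71, Gm38387 at 1.51 and Gm37570 at 0.87 in the authors' deposited table, so that members of 1 host stood on both sides of it, and Gm37285, on an exon, was optimized-only. Picalm (chr7:90130213-90213465, 1.25 in the authors' deposited table), a gene of clathrin coat assembly, held 4 as well, Gm45220, Gm45221, Gm45222 and Gm45223. These lie at 86.9%, 68.3%, 21.5% and 5.82% of its span and all 4 were optimized-only. Camk2d (1.09 in the authors' deposited table), a calcium-dependent kinase gene, held the shared Gm43011 (1.01) and the optimized-only Gm42515 and Gm43009. Mir99ahg (1.86 in the authors' deposited table), a lncRNA gene that hosts microRNAs, held 3 optimized-only members, C130023A14Rik, Gm21816 and Gm37606. A further optimized-only member, Gm31258, lies antisense to it.

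Members after a 3' end stood below their host more often than above it. In the 24 pairs the members had a median of 0.71 and the hosts of 1.05. The median difference was -0.31 on the log2 scale (quartiles -0.47 and 0.00), with 18 members below and 6 above their host. Across the 24 pairs Spearman's rho was 0.45 and Pearson's r 0.44, as a description. The 30 lncRNA genes after the 3' end of a shared gene had a median difference of -0.23, with 21 below and 9 above.

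Single pairs show the range. BB187690 stood 1.10 below Ankub1 (difference -1.10), and Gm43667 (0.69), after the mitochondrial import gene Dnajc19 (1.54), gave a difference of -0.86 in the authors' deposited table. Next to these, chosen after their values were seen, Gm43668 (1.10) lay beside Fxr1 (1.03), an RNA-binding protein gene, and Gm37499 (1.09) beside Stam (1.06) in the authors' deposited table. The pairs of Dnajc19 and Fxr1 are entangled: Gm43667 also lies inside Fxr1, and Gm43668 inside Dnajc19, each on the opposite strand. The same-strand place was taken first, and without a stated strand setting their reads cannot be told apart with certainty. Other members after an end were not searched for such overlaps. Gm43085 (0.46) and Gm44250 (0.36) were low beside equally low hosts, the chemokine gene Cxcl15 (0.41) and Pon3 (0.37), in the authors' deposited table. On an exon, Gm37397 (0.46) lay below Pyurf (1.39) in the authors' deposited table, with a difference of -0.93.

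The distance from the host's end ranged from 186 to 4324 bases among the shared members (median 984.5). The 12 that began more than 1 kb away had a median of 0.67 and a median difference from the host of -0.32, with 11 below the host. The 12 within 1 kb had a median of 0.86 and a median difference of -0.08, with 7 below it. Whether a member is a separate transcript or a longer end of its host was not tested. The 5 optimized-only members after an end were Gm43379 (7726 bases, chr3:135428163-135435888) after 4930539J05Rik, itself optimized-only, Gm42894 (3390 bases) after Galnt17, Gm43820 (3346 bases) beginning 9 bases after the growth factor antagonist gene Spry1, Gm43143 after the DNA repair gene Xrcc2, and Gm43860 after Trmt44. The last 2 of these were named after the tables were seen, to complete the set.

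Antisense members stood above their opposite gene more often than below it. In 19 pairs the members had a median of 1.44 and the opposite genes of 1.14, and the median difference was 0.26 (quartiles -0.12 and 0.85), with 13 members above and 6 below. Spearman's rho was 0.18 and Pearson's r 0.32 over the 19 pairs, as a description. Antisense lncRNA genes gave a median difference of 0.31 in 128 pairs, with 91 above and 37 below. Particl, antisense to the methionine adenosyltransferase gene Mat2a, had a ratio of 1.33 in the authors' deposited table, against 1.56 for Mat2a, and was named after its value was seen. The longest optimized-only antisense members were Gm9954 (4725 bases, opposite Nwd2), Gm43361 (4690 bases, opposite the calcium pump gene Atp2a2) and 2310043P16Rik (3881 bases, opposite Lsm14a, a gene of RNA granules). Without a stated strand setting, reads of the 2 strands cannot be told apart with certainty.

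**Figure D4:**
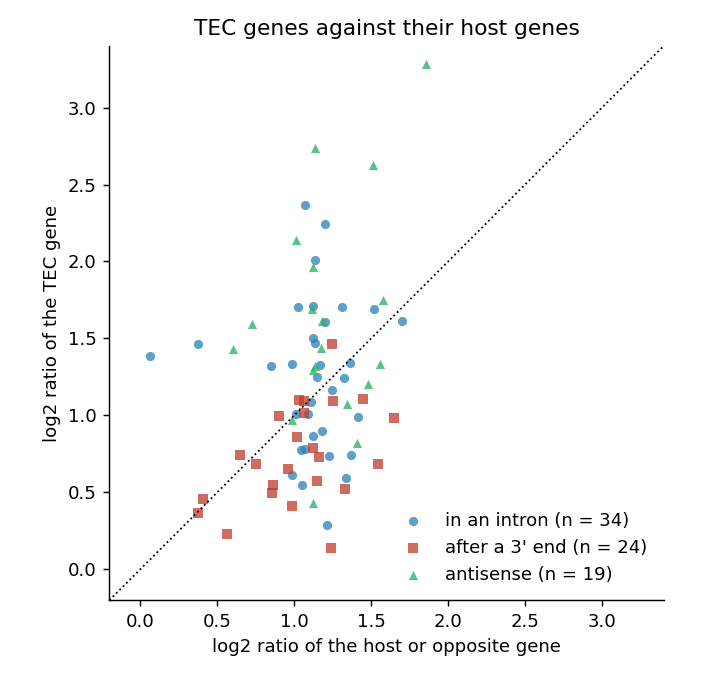
Each point is 1 pair of a shared TEC gene (vertical axis) and the listed gene that sets its place (horizontal axis), both as log2 ratios of optimized over standard extraction, for 34 intronic, 24 after-end and 19 antisense pairs. On the dotted line both are equal: 18 of the 24 squares (after a 3' end) lie below it and 13 of the 19 triangles (antisense) above it, while the circles spread to both sides.

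Polyadenylation signals were most frequent in members after a 3' end and near a start, and scarce in those in introns, on exons and over unlisted genes. AATAAA or ATTAAA, searched on the transcript's own strand only, stood within the last 50 bases of 31 of 111 optimized-only members (27.9%), all 3 standard-only members and 51 of 121 shared members (42.1%). The share was 27.6% of annotated, unlisted TEC genes of all places, 58.5% of shared lncRNA genes and 74.6% of shared protein-coding genes. By place it was 72.4% of 29 members after a 3' end, 57.9% of 38 antisense members, 29.3% of 41 between genes and 19.8% of 96 in an intron. In the smaller places it was 6 of 7 near a start, 2 of 9 on an exon and 3 of 15 over an unlisted gene. Among members after a 3' end 1 of 5 optimized-only genes held it, against 20 of 24 shared genes. The 50 bases around the midpoint of the transcript held either motif in 5 of 235 members (2.13%). A match describes these letters, and no match says only that they are not in this window.

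Shared members with a signal had lower ratios than those without. Their median was 1.02 (n = 51, 21 above the overall median), against 1.30 without (n = 70, 45 above). Within places the order was the same in each of the 4 largest. It was 0.71 (n = 20) against 0.82 (n = 4) after a 3' end, 1.18 (n = 8) against 1.32 (n = 28) in introns, 1.43 (n = 11) against 1.67 (n = 8) for antisense members and 0.86 (n = 8) against 1.21 (n = 22) between genes. These differences are no larger than the quartile ranges within each group.

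**Figure D5:**
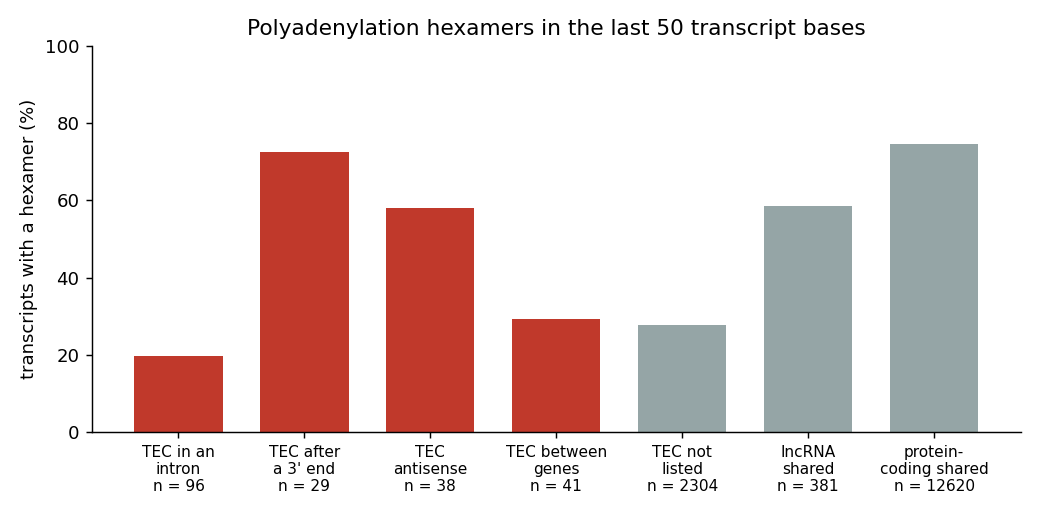
Bars give the percentage of transcripts with AATAAA or ATTAAA in their last 50 bases, for listed TEC genes by place (red) and for 3 comparison sets (grey), with the number of transcripts under each bar. Members after a 3' end (72.4%) stand near shared protein-coding genes (74.6%). Intronic members stand at 19.8% and unlisted TEC genes of all places at 27.6%, with no share computed for unlisted intronic ones.

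Length and base composition differed more between listed and unlisted TEC genes than between optimized-only and shared members. The median exonic length was 2829 bases for optimized-only members, 1873 for the 3 standard-only members and 2465 for shared members, against 1854.5 for unlisted TEC genes. GC content had medians of 41.2%, 39.1% and 41.5% in the same lists, against 42.4% for unlisted TEC genes, 46.5% for shared lncRNA genes and 49.4% for shared protein-coding genes. Across the 121 shared members, Spearman's rho with the log2 ratio was -0.00 for length and 0.09 for GC content, as a description. The longest optimized-only members on an exon were Gm49493 (4136 bases, host Mesd), Gm38077 (3245 bases, host Mrpl3) and Gm43185 (2775 bases, host Nexn), and between genes Gm43769 (4323 bases), Gm37086 (3452 bases) and Gm44873 (3428 bases).

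Many members between genes had near-identical copies elsewhere in the genome, so their counts are uncertain. Of all 235 members 30 (12.8%) had a near-identical copy in another annotated gene elsewhere (at least 95% identity over at least 50% of the length): 5 optimized-only (4.5%), 0 standard-only and 25 shared members (20.7%). Between genes it was 22 of 41 (53.7%), against 3 of 96 in introns, 2 of 38 antisense and 0 of 29 after a 3' end. It was 3 of 15 over an unlisted gene, 0 of 9 on an exon and 0 of 7 near a start. Only members were searched for copies, so there is no share of unlisted TEC, lncRNA or all listed genes beside these. The optimized-only Gm45663 and the shared Gm42553, whose ends are printed above, match over 100% of the length at 98.01% identity, so that reads of 1 could have been counted for the other. Gm37903 had copies in 31 other genes and Gm37158, on the Y chromosome, in 27. Their values, 1.24 and 1.60 in the authors' deposited table, are uncertain to that extent. Between genes, the shared members with a copy had a median of 1.12 (n = 18) and those without one 1.17 (n = 12).

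Nuclear lncRNAs give a scale for these ratios. Of 11 such genes 8 were shared, with a median log2 ratio of 1.88, from Meg3 (3.14), Malat1 (2.84) and Neat1 (2.65) over Xist (2.00), Airn (1.75), Rian (1.73) and Kcnq1ot1 (1.44) to Tug1 (1.20) in the authors' deposited table. Mirg and Snhg11 were optimized-only, and Miat was not listed. The median of intronic TEC members (1.25) lay below all of these but Tug1, and 4 single members, Gm37795, Gm33366, 6430511E19Rik and Gm43980, lay within or near the range of Meg3, Malat1 and Neat1.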

How the data were processed

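RNA of heavy complexes was sequenced in 6 libraries, 3 from the optimized and 3 from the standard extraction. Build mm10, TopHat2 and featureCounts are named in the labels, per the submitters' processing notes. The sources used here give neither versions, strand setting and annotation, nor how ratios were scaled over the 3 batches or which rule put a gene on a list. Each shared gene has 1 value deposited by the authors, a log2 fold change with the optimized extraction on top, per the file headers; the lists of 1 extraction alone hold no value. Whether the batches came from separate cultures or animals is stated only as biological repetitions in the labels. Unmatched columns of per-sample values numbered 0, and depth is unknown.

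Of 13970 listed genes 13962 matched GENCODE M21 by identifier; 17 members have no symbol in the tables, and 1 has another one there (Gm45010 for Gm31024). Places, signals and open reading frames were read from that annotation and its transcripts, a host being the gene with a shared value first, then the nearest or the longest overlap. Copies were searched with blastn 2.17.0, on both strands. Other steps used Python 3.11.15, numpy 2.4.6, scipy 1.17.1 and matplotlib 3.10.9. A fold of 2 stood in for a call.

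Genes were named by rule: the 12 highest and 8 lowest shared members, all standard-only members, the 4 largest differences from the host in each direction, hosts with 3 or more members, the 3 longest optimized-only members of the main places, and 11 nuclear lncRNAs. Every other gene named, and the members whose ends are printed, were picked with values known. The members and lists were chosen with earlier results of these data known. Alternatives were windows of 1 and 10 kb, other host sets, the mean, centring, gene span and signals in the last 100 bases.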

Additional observations from a re-analysis of the deposited data

How the results depend on the processing

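No paired analysis was possible because the tables hold 1 ratio per gene and no value per library; for the same reason no replicate could be left out. Of 87 alternatives to 23 results, 64 stayed within the tolerance used and 23 did not. The tolerance was equality to the second decimal for medians and 1.5 times for counts (for signals, the exact binomial 95% interval), so that counts could move further than medians: the shared members between genes numbered 42 with a window of 1 kb, against 30 as reported. The mean of the shared members was 1.20, and centring on the median of all shared genes gave a median of 0.016 and 7 members at least 2-fold higher, and 8 of the 74 members called at least 2-fold higher then fell below 0. With a window of 1 kb, 3 optimized-only and 12 shared members began after a 3' end, with medians of 0.86 after an end, 1.38 antisense and 1.00 between genes; with 10 kb, 8 optimized-only members did, and the median after an end was 0.77. With protein-coding hosts alone the medians were 1.22 in introns, 0.69 after an end and 1.13 between genes. Means by place were 1.24 in introns, 0.74 after an end, 1.62 antisense and 1.13 between genes. Mean differences from the host were -0.064 over all same-strand pairs, -0.29 after an end and 0.12 in introns, where the median (-0.01) has the other sign. Without members that have a near-identical copy, 6 optimized-only and 12 shared members lay between genes, the shared ones with a median of 1.17; this and 1 value per host were chosen after seeing the data. Runs of A in the genome after a transcript's end and repeat-masked shares, both planned, were not run. Depth is unknown, so which ratios rest on few reads cannot be said.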

Other observations

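Listed TEC genes were not spread evenly over the genome, and neither was the class. Chromosomes 1 to 9 held 217 of the 235 members, and chromosomes 10 to 19 held 17, with 1 on the Y chromosome. The annotation has 2426 TEC genes on chromosomes 1 to 9 and 778 on chromosomes 10 to 19. Among those with an identifier no later than the last listed one, the listed share was 9.31% of 2319 on chromosomes 1 to 9 and 8.33% of 204 on chromosomes 10 to 19. On chromosomes 10 to 19 the 17 members were 14 optimized-only and 3 shared, against 97 optimized-only, 3 standard-only and 117 shared on chromosomes 1 to 9.

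A few members carry long open reading frames although the class is unverified. The median longest frame was 70 codons for optimized-only and 80 codons for shared members, against 424 for shared protein-coding genes. It was 66 codons for annotated, unlisted TEC genes, 76 for optimized-only lncRNA genes and 83 for shared lncRNA genes, near the values of the members. The longest belonged to Gm42427 (904 codons, log2 ratio 1.02 in the authors' deposited table), which RefSeq lists as protein-coding. It was followed by Gm37158 (846 codons), Gm42860 (814), Gm44660 (581), the optimized-only Gm43041 (576) and Gm7265 (482). Of these Gm37158, Gm42860, Gm44660 and Gm43041 have near-identical copies in other genes. All were named after their values were seen, and whether any frame is translated was not tested. Looked up by symbol in RefSeq, 225 of 235 members had no entry, 8 were lncRNA genes, 1 was protein-coding and 1, Gm10416, was a transcribed pseudogene.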
